A study of Mus musculus with 10 samples.

Results

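Gpr50, Mstn, Rgs1, Siglec15, Tm4sf19, Cd72, Ubd and Myh15 are 8 genes that followed the level of macrophage genes in mouse visceral fat. None of them is a standard macrophage marker. They were chosen by their loadings on the first principal component of the 10 expression profiles, so their spread across libraries and their likeness to macrophage genes are given below as a description, with no test. The 8 genes are 8 of the 23930 amplicons counted, and all 8 were among the 12719 that passed the filter on low counts. They lie within the 13 largest loadings of that component over all 10 libraries. Without wild-type 1, Mstn was at rank 41, Ubd at 52 and Tm4sf19 at 17, and without wild-type 5 Myh15 was at 32, Cd72 at 24 and Siglec15 at 20. The other 5 within those ranks were Srgn, Art2a-ps, Atp6v0d2, 9130204L05Rik and Cdkl4. At the edge of the choice, Ubd at rank 13 had a loading of 0.0416 and Hpx, the gene of the haem carrier hemopexin, at rank 14 had a loading of 0.0415 and is not among the 8.

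RNA came from epididymal white adipose tissue, the fat depot beside the epididymis, of male C57BL/6 mice aged 18 weeks that had eaten food rich in sugar (sucrose) and fat over 8 weeks. Wild-type mice carried intact Srgn (Srgn+/+, n = 5), and Srgn-knockout mice lacked serglycin, a proteoglycan of secretory granules in immune cells (Srgn-/-, n = 5). Age, strain, sex and diet were shared by both groups, and no mice on a control diet are among the samples. Libraries were made with a targeted panel in which each gene is read through 1 short amplicon, and levels below are read counts scaled to a common library size (CPM, with TMM factors).

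Fat of obese mice takes up many macrophages, which gather around dying adipocytes, load themselves with lipid and switch on lysosomal genes. Such cells share part of their programme with osteoclasts, the bone-resorbing cells of the same lineage, which fuse and acidify their surroundings with a vacuolar proton pump. The 8 genes come from several other settings: Gpr50 encodes an orphan relative of the melatonin receptors, Mstn the muscle growth inhibitor myostatin, Myh15 a myosin heavy chain, Cd72 a receptor best known from B cells, and Siglec15 and Tm4sf19 membrane proteins studied in osteoclasts.

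To show what lies before the starts of genes that varied together here, 4 upstream windows are printed, each holding the 250 bases before the annotated start, on the plus strand, from RefSeq on GRCm38.p6. They lie at chr1:53061390-53061639 for Mstn, chr16:49057150-49057399 for Myh15, chr17:37193642-37193891 for Ubd and chrX:71663417-71663666 for Gpr50. None of these windows overlaps an exon in the GENCODE annotation. Capitals mark matches to the motifs named afterwards.
Mstn: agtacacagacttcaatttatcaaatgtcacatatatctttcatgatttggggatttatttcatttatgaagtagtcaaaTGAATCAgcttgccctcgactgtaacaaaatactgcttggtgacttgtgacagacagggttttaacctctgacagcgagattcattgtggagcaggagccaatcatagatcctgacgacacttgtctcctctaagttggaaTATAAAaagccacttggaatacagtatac
Myh15: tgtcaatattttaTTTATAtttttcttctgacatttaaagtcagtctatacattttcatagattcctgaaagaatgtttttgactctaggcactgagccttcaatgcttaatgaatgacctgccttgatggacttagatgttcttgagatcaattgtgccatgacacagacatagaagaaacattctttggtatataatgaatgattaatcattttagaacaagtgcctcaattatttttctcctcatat
Ubd: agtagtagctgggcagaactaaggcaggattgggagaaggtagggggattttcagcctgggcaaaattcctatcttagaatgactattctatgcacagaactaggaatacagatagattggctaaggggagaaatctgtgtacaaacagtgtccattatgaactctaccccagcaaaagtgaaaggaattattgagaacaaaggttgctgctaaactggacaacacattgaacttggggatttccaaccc
Gpr50: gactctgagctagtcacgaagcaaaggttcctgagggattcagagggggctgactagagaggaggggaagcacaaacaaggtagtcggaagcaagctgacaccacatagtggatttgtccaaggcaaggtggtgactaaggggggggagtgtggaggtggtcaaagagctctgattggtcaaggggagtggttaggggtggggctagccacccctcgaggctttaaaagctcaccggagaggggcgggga

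Promoters of 6 of the 8 genes were matched by symbol and searched on both strands; Rgs1 and Siglec15 were not searched. The windows of Cd72 and Tm4sf19 were searched but are not printed, since each lies inside a longer gene model. The letters TGANTCA, an AP-1 site, were found in 1 of the 6, in Mstn from 170 bases before the start, against 6.75% of 32851 promoters of the same length. TATAAA was found in 2 of the 6, from 29 bases before the start of Mstn and on the reverse strand of Myh15 from 237 bases before it, against 12.4% of promoters. GAGGAA, a core bound by the myeloid factor PU.1, was found in 1 of the 6, in Cd72 from 47 bases before the start, against 23.3% of promoters. No match was found in the 6 for CACGTG (6.02% of promoters), the NF-kappaB pattern (17.6%), TTCNNNGAA (7.02%) or CAGCTG (13%). The NF-kappaB pattern had a fixed A after its opening run of G, so forms with G in that place were not counted. The printed Ubd window holds such a form near the start of the gene. These matches describe letters in the windows, and binding was not measured.

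Each library held between 7824764 and 10757779 reads. Srgn, the targeted gene, had 776 to 1301 reads in wild-type libraries and 0 to 12 in Srgn-knockout libraries, as labelled, although where its amplicon lies relative to the deleted part is not known. A list of macrophage genes averaged over its 19 tested members spanned 3.48-fold across the 10 libraries. Wild-type 1, Srgn-knockout 2 and Srgn-knockout 3 had the lowest means and wild-type 5 the highest, and the genotype difference in this mean did not exceed the spread between mice (exact permutation test, two-sided, p = 0.317). The first principal component held 37.3% of the variance, and its score had r = 0.975 and rho = 0.818 with the macrophage list mean, -0.848 with the adipocyte list mean and -0.870 with the number of amplicons detected, over the same 10 libraries. Summed epididymis and testis markers were at 981 CPM in wild-type 4, 4316 in Srgn-knockout 3 and 987 in Srgn-knockout 5, and between 1.15 and 160 elsewhere; r of the component with the log2 of this sum was -0.564.

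Gpr50 had the largest loading of all tested genes. Its level was 1.25, 78.2, 72.1, 116 and 211 CPM in wild-type libraries 1 to 5 and 48.2, 1.21, 4.05, 27.2 and 11.7 CPM in Srgn-knockout libraries 1 to 5. Wild-type 1 and Srgn-knockout 2 were far below the rest, and the other 4 wild-type libraries were above every Srgn-knockout library. The genotypes overlapped through wild-type 1 only. The highest library was 174-fold above the lowest (95% interval 97.1 to 350, from 1589 and 11 reads). Like every interval and floor here, it covers counting error only. It leaves out the spread between mice and the choice of the highest and lowest library. Reads were amplified by PCR without molecular identifiers, so it may be too narrow even for counting error. Without wild-type 5 the range was 95.5-fold. The receptors closest to it in sequence, Mtnr1a and Mtnr1b, were near the detection limit, with 3 and 0 reads over all 10 libraries.

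Rgs1, which speeds up the switching off of G proteins downstream of chemokine receptors, was lower in level but similar in order. It was at 0.866, 11.2, 12.4, 12.8 and 41.3 CPM in wild-type 1 to 5 and at 16.1, 1.10, 3.33, 19.6 and 7.43 CPM in Srgn-knockout 1 to 5. Wild-type 5 stood above all others, and the genotypes overlapped. The range was 47.6-fold (interval 24.8 to 105), and 22.7-fold without wild-type 5. Of the 9 regulators of the same subfamily (R4), 6 were tested and none passed the genotype test. Rgs18 and Rgs2 had r = 0.960 and 0.906 with the macrophage list mean, and the median of the 6 was -0.16. Over all 12719 tested genes, 24.8% had r above 0.5 with that mean and the median was -0.029, the background for each list count given here. Rgs5, named after its values were seen and known from pericytes, had r = -0.79.

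Siglec15 binds sialylated glycans and signals through the adaptor Tyrobp in osteoclast formation. Its level was 0.0962, 1.34, 3.65, 2.97 and 12.6 CPM in wild-type 1 to 5 and 4.90, 0.660, 0.595, 3.95 and 0.765 CPM in Srgn-knockout 1 to 5. Wild-type 5 was more than 3 times any other wild-type library, and the lowest library held 1 read, so the 131-fold range has a counting interval of 22.9 to 5227. Without wild-type 1 the range was 21.2-fold. Tyrobp itself varied less, from 134 to 838 CPM. Of 10 Siglec family and adaptor genes, 9 were tested, none passed the genotype test, and 5 had r above 0.5 with the macrophage list mean, among them Siglec1 (0.979). Tyrobp, another of the 5, is itself part of that mean.

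Tm4sf19, a four-transmembrane protein of the L6 family, was at 2.41, 16.9, 30.3, 27.3 and 56.3 CPM in wild-type 1 to 5 and at 39.6, 4.29, 7.50, 35.3 and 13.3 CPM in Srgn-knockout 1 to 5. Its range was 23.4-fold (interval 15.6 to 36.5), with wild-type 1 lowest and wild-type 5 highest, and 13.1-fold without wild-type 1. The genotypes overlapped. None of its 3 tested relatives had r above 0.5: Tm4sf1 had r = -0.65 and Tm4sf5 0.388 with the macrophage list mean.

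Cd72, an inhibitory receptor whose ligand is Sema4d, followed the macrophage genes most closely among the 8. Levels were 2.69, 15.9, 27.9, 19.3 and 58.7 CPM in wild-type 1 to 5 and 21.9, 3.52, 5.48, 14.7 and 9.07 CPM in Srgn-knockout 1 to 5. The range was 21.8-fold (interval 14.9 to 33.1), and 10.4-fold without wild-type 5. Its r with the macrophage list mean was 0.991 and rho 0.988, the fourth largest r among the 12719 tested genes. Of its 10 ligand and signalling genes, all were tested, none passed the genotype test and 7 had r above 0.5, including Sema4d (0.948), the adaptor Blnk (0.953) and the phosphatase Ptpn6 (0.922).

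Mstn, a secreted member of the TGF-beta family that limits skeletal muscle growth, was almost absent from wild-type 1 and had a flat top. Its level was 0.0962, 11.7, 16.0, 18.9 and 15.7 CPM in wild-type 1 to 5 and 16.0, 1.65, 3.81, 13.8 and 13.7 CPM in Srgn-knockout 1 to 5. The 7 libraries richest in macrophage genes lay between 11.7 and 18.9 CPM, and the other 3 lay between 0.0962 and 3.81. The 196-fold range rests on 1 read in wild-type 1 (interval 34.7 to 7792) and was 11.4-fold without that library. Of 18 genes of myostatin and activin signalling, 17 were tested and none passed the genotype test; 2 had r above 0.5 with the macrophage list mean, against 24.8% of all tested genes, and the median was -0.11. The 2 above 0.5 were Furin (0.726) and Bmp1 (0.613). The inhibitor Fst (follistatin) had r = 0.426 and the type I receptor Acvr1b 0.464, and the myostatin receptor Acvr2b, named after its values were seen, -0.62.

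Myh15 was the scarcest of the 8, with no read in wild-type 1 and Srgn-knockout 2. Its level was 0, 0.573, 3.45, 1.49 and 9.42 CPM in wild-type 1 to 5 and 1.57, 0, 0.714, 1.66 and 0.765 CPM in Srgn-knockout 1 to 5. With the zero libraries set to a floor of 3 reads per library (0.330 CPM in Srgn-knockout 2, the higher of their floors), wild-type 5 was at least 28.5-fold higher, and the genotypes overlapped. Without wild-type 5 the range was at least 10.5-fold. Of 12 other myosin heavy chains measured, 4 were tested, and 1 had r above 0.5 with the macrophage list mean (median -0.46). That was Myh9, a non-muscle chain of migrating cells, at 0.893. The non-muscle chains Myh10 and Myh14 had -0.80 and -0.13, and Myh11 of smooth muscle had -0.84.

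Ubd encodes FAT10, a ubiquitin-like tag that sends proteins to the proteasome and is induced by inflammatory cytokines. It was at 3.37, 44.5, 88.0, 60.9 and 89.8 CPM in wild-type 1 to 5 and at 74.0, 8.80, 24.8, 66.5 and 50.4 CPM in Srgn-knockout 1 to 5. The range was 26.7-fold (interval 18.99 to 38.6), and 10.2-fold without wild-type 1, and the genotypes overlapped. Among 8 conjugation and immunoproteasome genes, all tested and none past the genotype threshold, Psmb8, Psmb9 and Psmb10 had r = 0.877, 0.865 and 0.897 with the macrophage list mean. The FAT10-activating enzyme Uba6 had -0.040 and the proteasome activator Psme1 0.029, both named after their values were seen.

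**Figure D1:**
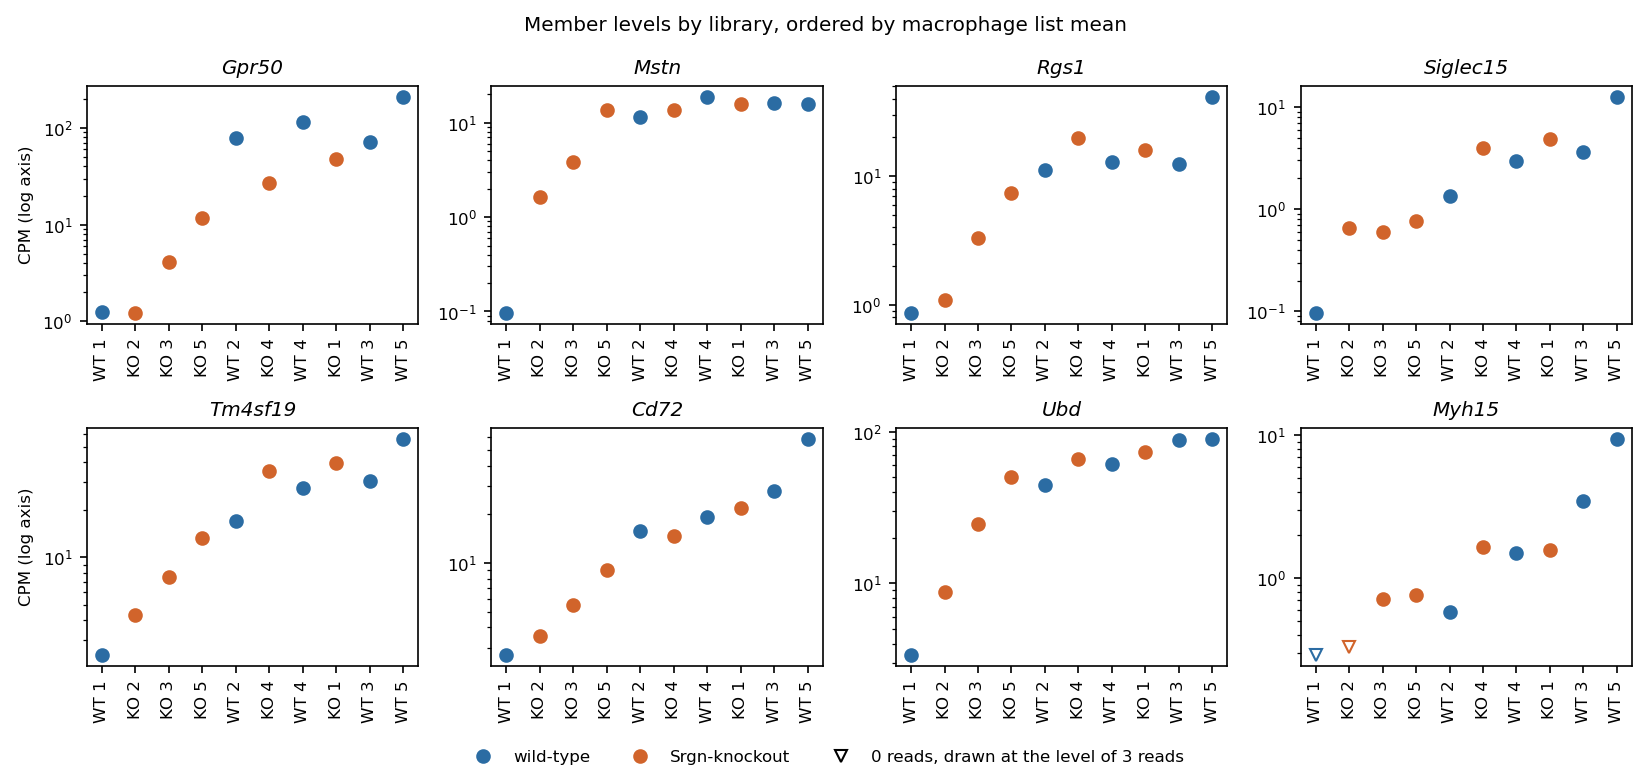
Level of each of the 8 genes in each library, in CPM on a log axis with its own range per panel; libraries are ordered from the lowest to the highest macrophage list mean, and colours give the genotype (WT, wild-type; KO, Srgn-knockout). Mstn is between 11.7 and 18.9 CPM in the 7 libraries on the right, whereas Siglec15 and Myh15 reach their highest values, 12.6 and 9.42 CPM, in wild-type 5; open triangles mark 0 reads, drawn at the level of 3 reads.

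The 8 genes had wider ranges than the general macrophage list, but not than every macrophage gene. On log2 CPM (prior count 2), their median range over the 10 libraries was 5.30, against 2.10 for the macrophage list and 0.863 for all tested genes. For each log2 unit of macrophage list mean the median member differed by 2.51 log2 units and the median macrophage gene by 0.97, Cd68 being the steepest of the list at 1.61. The slope of Gpr50 was 4.11, that of Rgs1 2.65, that of Mstn 2.59 and that of Cd72 2.21, and all 8 slopes were among the 13 largest of all tested genes. Some lipid-associated macrophage markers were as steep. Of 16 such genes, 4 had a range above that of Cd72, the narrowest of the 8: Atp6v0d2 (43.4-fold), Trem2 (34.5-fold), Mmp12 (28.0-fold) and Gpnmb (24.9-fold). The slopes of Atp6v0d2 and Trem2 were 2.52 and 2.23, and the median of the 16 was 1.15, with a median range of 2.57. Over all tested genes, 118 had a range above that of Cd72. In bulk tissue, fewer cells of a type and less RNA per cell cannot be told apart.

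The slopes differed in what they rested on. Without wild-type 1 and Srgn-knockout 2, the libraries farthest from the median of the macrophage list mean, the slope of Mstn was 1.08 and that of Ubd 1.14, where they had been 2.59 and 2.24. Gpr50 had 3.50, Siglec15 2.58, Cd72 2.07, Myh15 2.04, Rgs1 1.95 and Tm4sf19 1.82 without them, and the median macrophage gene had 1.04. Over all 10 libraries r with the macrophage list mean lay between 0.820 for Mstn and 0.991 for Cd72, with rho between 0.855 for Gpr50 and 0.988 for Cd72. Without those libraries Mstn had r = 0.740 and Gpr50 0.921.

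**Figure D2:**
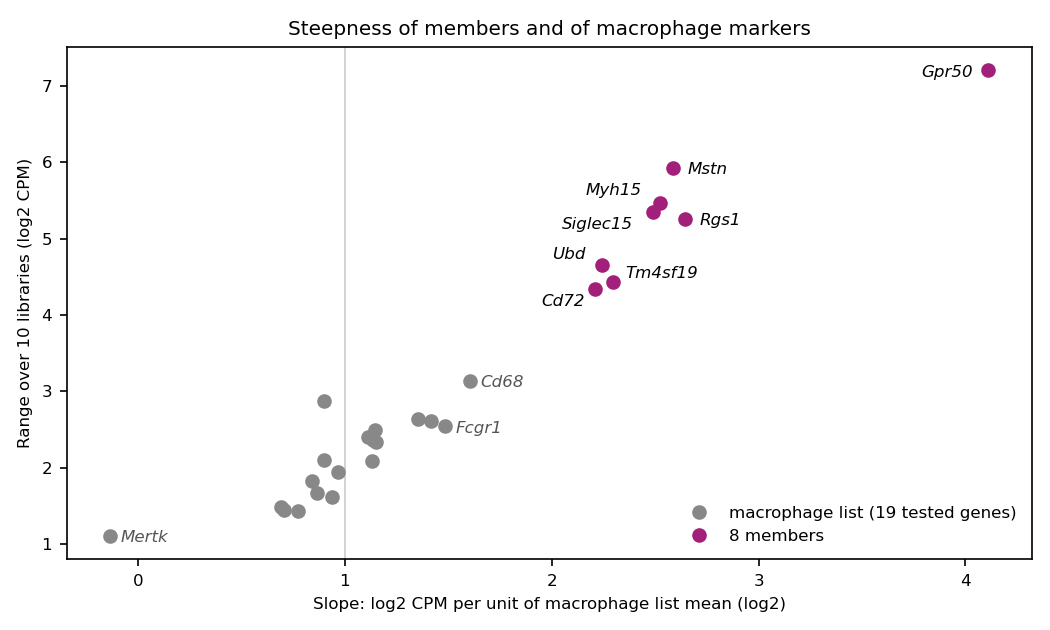
Slope on the macrophage list mean (x axis, log2 CPM per log2 unit) and range over the 10 libraries (y axis, log2 CPM) of each of the 8 genes and of the 19 tested macrophage list genes. All 8 genes lie to the right of Cd68, whose slope is 1.61, and Gpr50 lies apart at 4.11.

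Among the 28 pairs of the 8 genes, r over the 10 libraries had a median of 0.917. The lowest was between Mstn and Myh15 (0.787), and the highest between Rgs1 and Tm4sf19 (0.981). Mstn and Ubd, which had the lowest slopes without wild-type 1 and Srgn-knockout 2, had r = 0.979. All pairs share their 10 libraries, depths and normalisation.

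The tested genes most like each member, by r over the 10 libraries among 11924 named genes of at least 1 CPM, differed between members. Gpr50 was closest to Sirpa (0.981), an inhibitory receptor of macrophages, Plek (0.978) and Grn (0.976), which encodes progranulin. Cd72 was closest to Tyrobp (0.993), Cd68 (0.992) and Vav1 (0.991). Siglec15 was closest to Atp6v1b2 (0.989), a subunit of the vacuolar proton pump, the nucleotide receptor P2ry6 (0.985) and Blnk (0.984).

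Tm4sf19 was nearest to Ucp2 (0.994), Vav3 (0.990) and Plin2 (0.989), the last a coat protein of lipid droplets. Plin2 (0.984) also led for Rgs1, with Abhd12 (0.984) and the proton pump subunit Atp6v0b (0.981). The proton channel gene Otop1 was nearest to Mstn (0.992) and second for Ubd (0.987), and it too lay within a narrow span, 22.6 to 38.9 CPM, in the 7 libraries richest in macrophage genes, against 1.35 CPM for wild-type 1. The others were Tpi1 (0.987) and Slc5a7 (0.982) for Mstn, and Arl6ip1 (0.989) and Hephl1 (0.986) for Ubd. Myh15 was nearest to Cdk18 (0.981), Gpnmb (0.979) and Ap2m1 (0.969).

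Between genotypes, none of the 8 genes passed the test. All 8 had a lower fitted level in Srgn-knockout than in wild-type fat. Their median log2 difference was -0.80, against -0.47 for the macrophage list and -0.0014 for all tested genes, of which 6393 of 12719 were lower. This shared sign is not independent of the choice. Scores on the component used for it leaned the same way, with medians of -15.2 for knockout libraries and 21.9 for wild-type ones. That lean did not exceed the spread between mice (exact permutation test, two-sided, p = 0.198). Nor are the 8 signs separate results, since the median r between pairs was 0.917. With edgeR's quasi-likelihood test and Benjamini-Hochberg adjustment over all tested genes, 0 of the 8 and 1 of 12719 genes (0.00786%) were past an adjusted p of 0.05, the 1 being Srgn. At an unadjusted p under 0.05 the count was 0 of 8, against 12.8% of all tested genes. P-values weigh each genotype difference against the spread between these mice.

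Gpr50 had the largest difference. Wild-type fat held 95.6 ± 76.6 CPM and Srgn-knockout fat 18.5 ± 19.5 CPM (SD, n = 5 each), a log2 difference of -2.36 with a standard error of 1.04 (edgeR adjusted p = 0.397). Myh15 differed by -1.62 (standard error 1.04, edgeR adjusted p = 0.535) and Cd72 by -1.17 (standard error 0.68, edgeR adjusted p = 0.504). Wild-type fat held 24.9 ± 20.9 CPM of Cd72 and Srgn-knockout fat 10.9 ± 7.44 (SD, n = 5 each). The other 5 had log2 differences from -0.89 for Siglec15 to -0.34 for Mstn, whose means were 12.5 ± 7.38 and 9.78 ± 6.54 CPM (SD, n = 5 each). Single libraries moved these values. Without wild-type 5, Gpr50 was at -1.84, Cd72 at -0.58 and Myh15 at -0.54, and the sign turned for Rgs1 (0.03), Siglec15 (0.12) and Tm4sf19 (0.06). Without wild-type 1, Mstn was at -0.67 and Ubd at -0.66, and without Srgn-knockout 1 Gpr50 was at -3.12.

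The standard errors of the 8 genes lay between 0.68 and 1.04, where the median over all tested genes was 0.165. With the macrophage list mean as a covariate in the same edgeR model, Gpr50 was at -0.96 (standard error 0.52, adjusted p = 0.401) and Cd72 at -0.00070 (standard error 0.15, adjusted p = 1). The other 6 changed sign and were between 0.49 for Myh15 and 0.87 for Ubd. Tm4sf19 had the smallest adjusted p of the 8, 0.0637, at 0.73 (standard error 0.16). None of the 8 was past the threshold in that model, against 51 of 12719 genes (0.401%). Excluding the 3 libraries with high epididymis markers, again none of the 8 was past it.

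**Figure D3:**
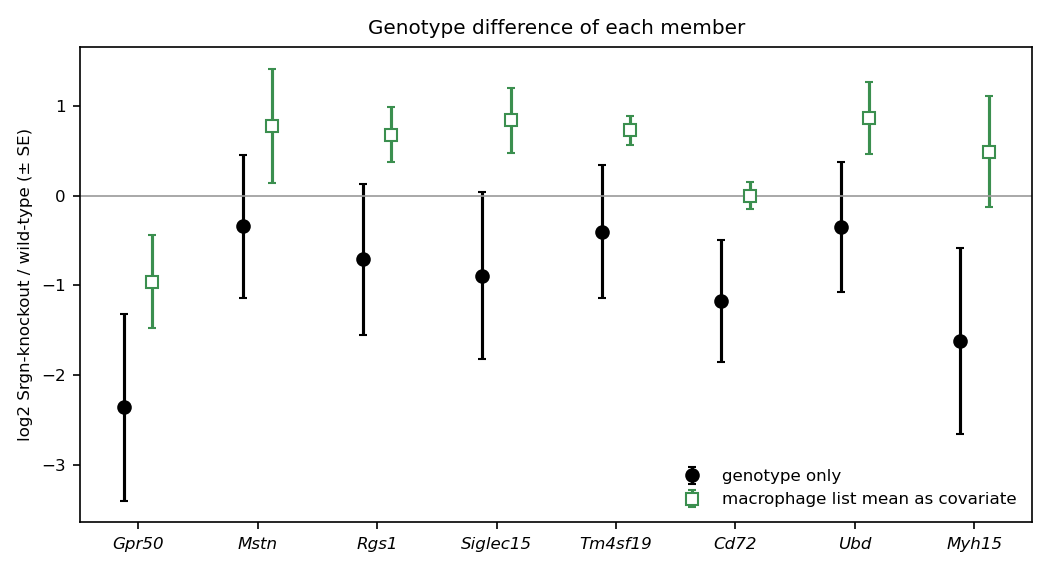
Fitted log2 difference between Srgn-knockout and wild-type fat for each of the 8 genes, with its standard error as the bar, from edgeR with genotype only (filled circles) and with the macrophage list mean as a covariate (open squares). With genotype only all 8 are below 0, from -2.36 to -0.34; with the covariate 6 are above 0.

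Lists of related cells and pathways give the setting of the 8 genes, and no gene of any list passed the genotype test (edgeR, Benjamini-Hochberg). Of 16 markers of lipid-associated macrophages, all tested, 14 had r above 0.5 with the macrophage list mean, with a median of 0.934, against the 24.8% of all tested genes. Atp6v0d2, the proton pump subunit at loading rank 6, ran from 8.85 CPM in wild-type 1 to 385 CPM in wild-type 5, and the lipid receptor Trem2 from 14.0 to 482 CPM in the same libraries. Of 19 osteoclast and cell fusion genes measured, 17 were tested and 14 had r above 0.5, with a median of 0.792. Of the 17, 15 were lower in Srgn-knockout fat and the median log2 difference was -0.35. Tyrobp in this list is also part of the macrophage list mean, and Atp6v0d2, Trem2, Ctsk and Acp5 are in both of these lists.

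Not every osteoclast gene shared the pattern. Tnfrsf11a, the receptor RANK, had r = 0.951. Chosen after their values were seen, the fusion genes Dcstamp and Ocstamp had 0.792 and 0.705 at no more than 9.16 and 2.84 CPM, and Acp5, the tartrate-resistant phosphatase, had -0.41 at 333 to 461 CPM. The macrophage list itself held a gene against its trend, Mertk, with a slope of -0.13.

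Some of the 8 genes are best known in B cells, T cells or skeletal muscle. Markers of these cell types had median correlations with the macrophage list mean from -0.11 to 0.187, against -0.029 for all tested genes. The median of the 8 genes, 0.948, is no yardstick for them. It follows from choosing the 8 on a component with r = 0.975 to that mean. Of 11 tested B cell genes 2 had r above 0.5 with the macrophage list mean, Cd37 (0.972) and Cd22 (0.913), a share near the 24.8% of all tested genes, and the median was 0.0788. Chosen after its values were seen, the defining B cell gene Ms4a1 had -0.22. None of 9 tested T cell genes had r above 0.5 (median 0.187). The wild-type libraries held 113 to 244 CPM of B cell markers in sum and the Srgn-knockout libraries 77.5 to 117 CPM. T cell markers summed to 32.7 to 90.8 CPM and 22.5 to 33.9 CPM, in the same order.

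Of 16 skeletal muscle genes measured only 5 were tested, and none had r above 0.5. The scarcest of the list, named after their values were seen, were the muscle factors Myf5 and Pax7 with 0 reads over all 10 libraries. Myod1, Ckm and Ryr1 had 1 each and Myog 2. The 5 tested genes had more, from 93 reads for Tnni2 to 2219 for Acta1. Muscle markers summed to 19.8 to 32.2 CPM in the wild-type libraries and to 23.6 to 60.3 CPM in Srgn-knockout libraries, and the most abundant of them, Acta1, was highest in Srgn-knockout 4 at 53.8 CPM. Mstn was at 13.8 CPM in that library, below 4 others. Of 12 adipocyte genes, all tested, 1 had r above 0.5, the satiety hormone gene Lep (0.644), and the median was -0.74.

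**Figure D4:**
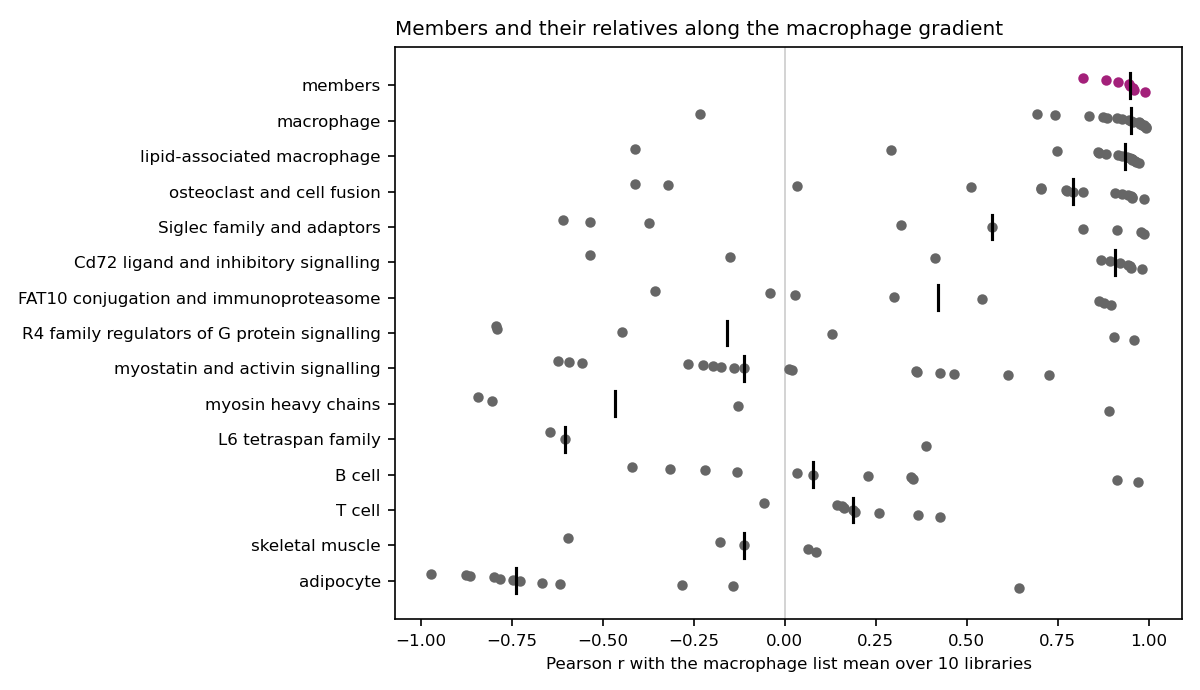
Pearson r with the macrophage list mean over the 10 libraries (x axis) for each tested gene of each list (rows, points), with the row median as a bar. Genes of the macrophage row, and Tyrobp in the osteoclast and Siglec rows, are part of that mean. The 8 genes, chosen on a component with r = 0.975 to that mean, lie between 0.820 and 0.991. The medians of the myostatin and activin (-0.11), skeletal muscle (-0.11), B cell (0.0788) and T cell (0.187) rows lie near 0.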

How the data were processed

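Total RNA of epididymal fat from 10 mice, 5 per genotype, was read with the Ion AmpliSeq mouse transcriptome panel on an Ion S5 XL sequencer, per the labels. The authors deposited whole-number read counts per amplicon and a table of RPM, reads scaled to the library total. The deposited RPM equalled the counts divided by the library total to within 0.00059. The build was mm9, per the submitters' processing notes, with the aligner, counter and strand setting not given in the sources used here. Every sample column was matched to a sample by its title, and 0 sample columns were left unused. All values start from the counts.

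Genes were filtered with filterByExpr (minimum count 10, minimum total 15; 11211 removed), scaled by TMM and tested with edgeR 4.0.16 (quasi-likelihood, Benjamini-Hochberg over 12719 genes) in R 4.3.3; the threshold was an adjusted p of 0.05. The script was tested on simulated data first. Log2 CPM used a prior count of 2, and principal components used centred, unscaled log2 CPM of all tested genes. Correlations are descriptions over 10 libraries. A count of 0 was set to a floor of 3 reads for folds, and intervals of folds are 95%. Single values were compared with an exact permutation test over 252 assignments, whose smallest two-sided p is 0.00794. Upper-quartile and total-count scaling, DESeq2 1.42.0, limma 3.58.1, no filter, a macrophage covariate and leaving out libraries were the alternatives.

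Named genes were the 8 members, Srgn, the 3 most correlated genes per member, and in each list up to 4 genes of largest loading and 2 of smallest p, with the most abundant gene in lists of other cell types; exceptions are marked. Members and lists were chosen with earlier results of these data known. Promoters came from a RefSeq table on GRCm38.p6 and share no coordinates with the counts.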

Additional observations from a re-analysis of the deposited data

Results flagged for a closer look

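Siglec15 in wild-type 5 was at 12.6 CPM, far above the next wild-type library at 3.65 CPM. The gap between them was 0.716 of the whole range of the 5 wild-type libraries, which reached down to 0.0962 CPM. It was the 1 group of 20 checked in which 1 library stood apart in this way, and chance alone sets about 1 in 20 groups apart.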

How the results depend on the processing

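None of the 8 genes passed the genotype threshold under any of 19 alternatives; the smallest adjusted p of any was 0.0637, for Tm4sf19 with the macrophage covariate. The count over all genes was 1 with edgeR, 226 with DESeq2, 3 without the low-count filter, 51 with the covariate, and 1 to 2 with each library left out (2 without wild-type 5 or Srgn-knockout 1); the cause was not tested. The log2 genotype difference changed sign with the covariate for Mstn (0.78), Rgs1 (0.68), Siglec15 (0.84), Tm4sf19 (0.73), Ubd (0.87) and Myh15 (0.49), with limma-voom for Mstn (0.41), and without the 3 epididymis-rich libraries for Tm4sf19 (0.0092). Leaving out 1 library each gave -1.15 to 0.034 for Rgs1, -1.46 to 0.12 for Siglec15 and -0.82 to 0.062 for Tm4sf19, with the positive values without wild-type 5. Leaving out wild-type 1 and Srgn-knockout 2, an alternative chosen after seeing the data, turned no sign. Scaling every gene to unit variance put Gpr50 at loading rank 14, Cd72 at 43, Tm4sf19 at 121, Rgs1 at 157, Ubd at 440, Siglec15 at 525, Mstn at 681 and Myh15 at 799, so the choice of these 8 depends on unscaled values. A prior count of 5 put Myh15 at rank 36, and the 500 genes of largest variance put Ubd at 32. Depth limits Myh15, Siglec15 and Mstn, which had 0 or 1 read in wild-type 1. No paired analysis was possible because replicate numbers follow the order of the samples and tie no mice together.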
